A study of Mus musculus with 158 samples.

Results

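The loci described here were those of 9 transcription factors that specify or maintain the kidney lineage: Pax2, Pax8, Lhx1, Emx2, Wt1, Tfcp2l1, Tfap2b, Esrrg and Gata3. They were 9 of the 21755 protein-coding genes of GENCODE vM21 on the autosomes and chromosome X. The choice was by name for their role in the kidney, not by a measured value, but earlier results of these data were known. Each locus was the gene body with 50 kb on both sides in the mouse genome build mm10. DNase I cuts DNA where it is not covered by nucleosomes, and a hotspot is a stretch with more cuts than its surroundings, called here at a false discovery rate (FDR) of 5%. At each locus, the hotspots were counted, their summed length was measured as base pairs (bp) covered, and the start of the gene was scored for a hotspot within 500 bp.

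The series holds 20 adult hotspot sets from F1 mice with C57BL/6J mothers, 1 for each of 5 hybrids in each of 4 tissues. B6x129 and B6xC3H have fathers of classical laboratory strains, B6xCAST and B6xPWK have fathers of wild-derived strains (CAST/EiJ and PWK/PhJ), and B6xSPRET has fathers of SPRET/EiJ, another mouse species. The tissues were whole kidney, whole liver, whole lung and B cells. All mice were 8 weeks old and untreated. B cells came from the femoral marrow of females and were enriched by depleting cells with CD43 or Mac-1/CD11b, and tissue of several mice was usually combined for the solid organs. The authors merged 138 DNase-seq libraries, 2 to 14 in each set, before hotspots were called, so a set has no spread of its own, and here the hybrids are the repeats of each tissue. B6xCAST mouse embryonic stem cells (mESCs) added 1 DNase-seq set and 1 set for CTCF, a DNA-binding protein of chromatin boundaries, and 17 RNA-seq libraries came from the 4 adult tissues. Every autosomal locus carries 1 C57BL/6J copy in all of these animals, so in inherited sequence the hybrids differ in the other copy. They differ in source too: the paper states that B6x129 and B6xC3H hybrids were bought and the others were bred by the authors' centre.

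Pax2 and Pax8 set aside the nephric lineage in the embryo and act together with Lhx1 and Gata3 in the nephric duct, from which the collecting system grows. Emx2 acts in the ureteric bud, and Wt1 acts in nephron progenitors and later marks podocytes, the filtering cells of the glomerulus. Tfap2b and Tfcp2l1 act in the distal parts of the nephron and the collecting duct, and Esrrg is an orphan nuclear receptor that controls genes of mitochondrial metabolism in cells with a high energy demand.

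The kidney sets held 186061 to 238917 hotspots, the liver sets 211762 to 295565, the lung sets 152006 to 281978 and the B cell sets 78387 to 156078. Among tubule genes, Slc12a1, Aqp2, Slc5a2 and Cubn had a hotspot at the start in all 5 kidney sets and in no other adult set, and Slc34a1 in 4 kidney sets and no other. Umod, Lrp2, Slc12a3, Atp6v1b1 and Scnn1g had it in all 5 kidney sets but in other tissues too, with Umod in 4 liver sets and Scnn1g in all 20 sets, and Pvalb had it in none. The podocyte gene Nphs1 had it in 1 kidney set. Of the liver genes, Alb had a start hotspot in 5 kidney sets and Ttr in 4, and Apoa1 in none, and the lung genes Sftpc, Sftpb and Scgb1a1, the B cell genes Cd79a and Cd79b and the T cell genes Cd3e, Cd3d and Cd3g had it in no kidney set. Whole organs mix cell types, and fewer cells of a type cannot be told apart from a less open site in each cell.

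A set of short stretches shows the DNA of some sites that were open in all 5 kidney sets and in no other adult set, described further on. Those of Pax2, Pax8 and Emx2 and the second of Esrrg had the highest summed hotspot score (−log10 FDR) of such sites outside exons and starts at their loci. The Wt1 site and the first Esrrg site were added for a motif match, so the stretches shown are not a fair sample of motifs. Each is the central 200 bases of a merged site in mm10 (GRCm38.p6) on the forward strand, and capitals mark matches to the motifs searched. The Emx2 site lay 55.0 kb downstream of the Emx2 start in an intron of 2700089I24Rik, at chr19:59513274-59513473, and its capitals match the motif of HNF1, a tubule homeobox factor.
Emx2 site: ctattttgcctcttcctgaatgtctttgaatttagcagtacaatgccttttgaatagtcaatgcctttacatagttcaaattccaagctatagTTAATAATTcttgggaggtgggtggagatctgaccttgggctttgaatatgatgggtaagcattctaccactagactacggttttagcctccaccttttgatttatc
The Wt1 site lay 95.8 kb downstream of the Wt1 start between genes, at chr2:105222207-105222406, and also held an HNF1 match, for which it was added. Its scores were low, 2.05 to 3.29, and a Wt1 site at -42.3 kb with scores of 6.09 to 17.4 and no HNF1 match is not shown.
Wt1 site: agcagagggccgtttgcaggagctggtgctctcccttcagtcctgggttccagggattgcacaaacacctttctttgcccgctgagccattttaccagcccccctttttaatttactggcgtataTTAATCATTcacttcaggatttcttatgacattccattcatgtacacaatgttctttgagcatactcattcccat
The Esrrg site lay 11.8 kb inside the first part of Esrrg in an intron, at chr1:187620463-187620662. It was likewise added for its HNF1 match, and was the 1 site with 4 kinds of match, in the order AP-1, TFAP2, HNF1 and ESRRG.
Esrrg site: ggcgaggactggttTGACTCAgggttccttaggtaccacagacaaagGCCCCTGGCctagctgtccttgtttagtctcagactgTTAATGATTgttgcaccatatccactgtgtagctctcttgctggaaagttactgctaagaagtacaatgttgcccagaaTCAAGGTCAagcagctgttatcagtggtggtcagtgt
A second Esrrg site, at chr1:187823520-187823719 in an intron 214.8 kb from the start, had hotspot scores of 36.9 to 100 as −log10 FDR and held an AP-1 match.
Esrrg intron site: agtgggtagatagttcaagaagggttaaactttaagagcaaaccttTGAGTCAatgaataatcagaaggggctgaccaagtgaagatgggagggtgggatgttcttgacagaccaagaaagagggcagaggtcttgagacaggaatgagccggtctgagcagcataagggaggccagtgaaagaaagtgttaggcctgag
The Pax8 site lay in an intron 22.2 kb from the start, at chr2:24453277-24453476, with scores of 35.5 to 100, and held none of the motifs.
Pax8 site: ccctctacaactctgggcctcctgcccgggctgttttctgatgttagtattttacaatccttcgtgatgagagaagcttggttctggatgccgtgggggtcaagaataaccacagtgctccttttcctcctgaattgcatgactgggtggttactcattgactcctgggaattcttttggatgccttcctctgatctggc
The Pax2 site lay in an intron 42.9 kb from the start, at chr19:44798797-44798996, and held none of the motifs.
Pax2 site: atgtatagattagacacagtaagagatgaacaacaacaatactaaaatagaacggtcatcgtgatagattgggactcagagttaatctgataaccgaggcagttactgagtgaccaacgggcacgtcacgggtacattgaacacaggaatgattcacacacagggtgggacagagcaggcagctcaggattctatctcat

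To ask in which tissue the loci were most accessible, the bp covered were compared between the 5 kidney sets and the 15 other adult sets, for every gene, with an exact two-sided permutation test over all 15504 choices of 5 sets and Benjamini-Hochberg adjustment over 21582 genes. Of the 9 loci, 6 were covered more in kidney at an adjusted p under 0.05 (Pax2, Pax8, Lhx1, Emx2, Wt1 and Tfap2b), none was covered less, and 3 (Tfcp2l1, Esrrg and Gata3) did not pass. Of all genes tested, 5.78% were called higher in kidney. The median difference between kidney and other sets was 11712 bp over the 9 loci and 49.2 bp over all genes. At Pax2, Emx2 and Tfap2b every kidney set lay above every other set, which held for 1.63% of all genes. By number of hotspots, 5 of the 9 were called higher in kidney (Pax2, Pax8, Emx2, Wt1 and Tfap2b) against 4.34% of all genes, and the sets did not overlap at 3 (Pax2, Pax8 and Tfap2b) against 1.01%.

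**Figure D1:**
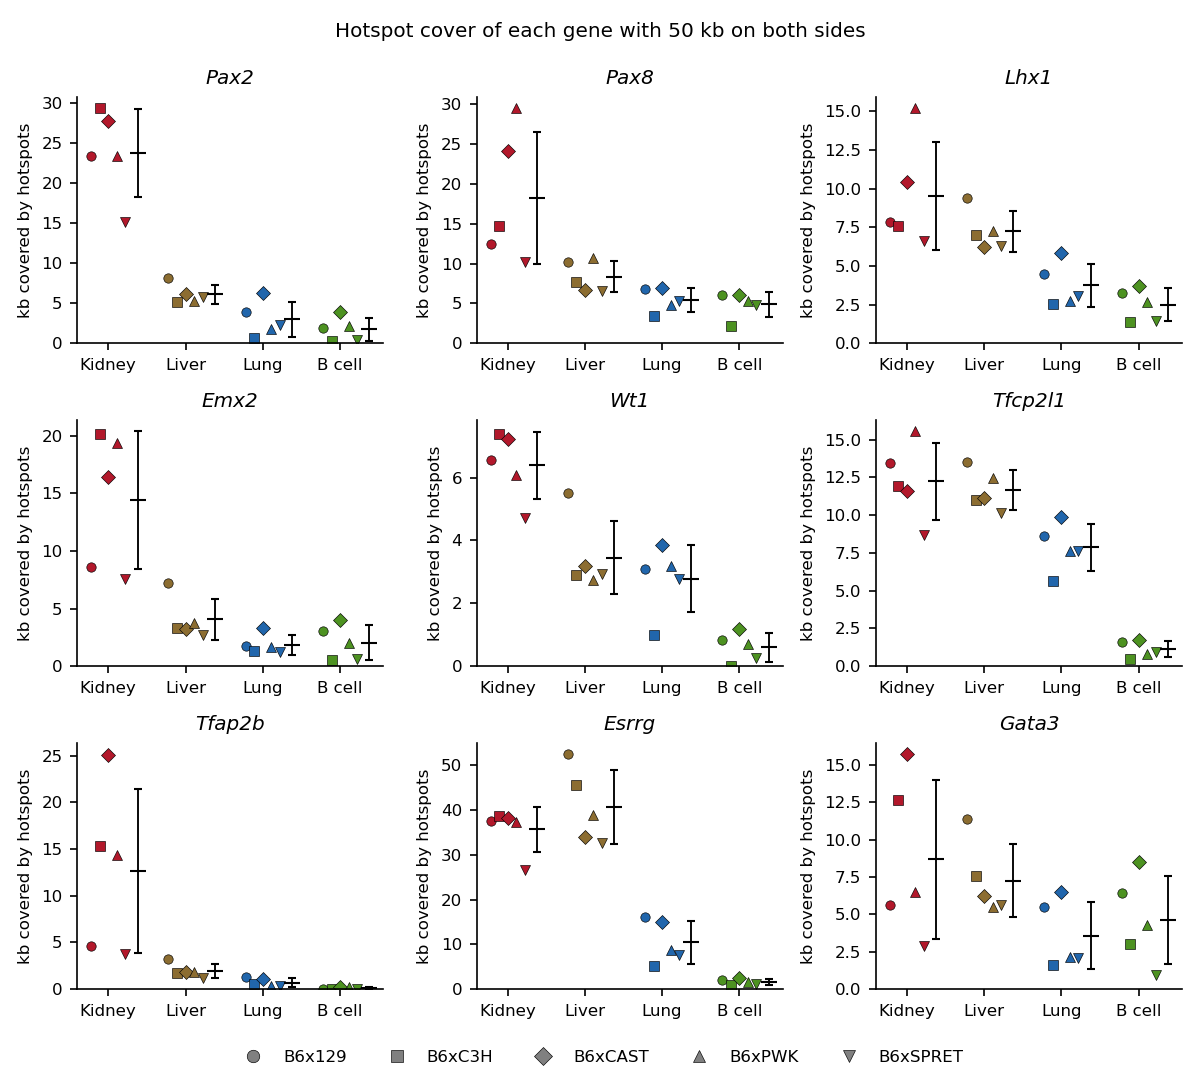
Hotspot cover of each locus (kb, vertical axis) in the 20 adult sets, by tissue (horizontal axis), with 1 point per hybrid, marked by shape, and a bar at the mean. Kidney points stand above all others at Pax2, Emx2 and Tfap2b, whereas kidney and liver points overlap at Lhx1, Tfcp2l1, Esrrg and Gata3. At Pax8 and Wt1 only the B6xSPRET kidney point lies below the highest liver point.

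Pax2, a paired-box factor at chr19:44756045-44837871 on the forward strand, was the locus with the largest difference in bp. Its hotspots covered 23369 bp in B6x129 kidney, 29373 in B6xC3H, 27756 in B6xCAST, 15221 in B6xSPRET and 23445 in B6xPWK. In the 15 other sets they covered 248 to 8142 bp, with a median of 3874, so even the lowest kidney set, B6xSPRET, was above the highest set elsewhere. Kidney cover was 23833 ± 5491 bp (SD, n = 5) and that of the other sets 3604 ± 2460 (SD, n = 15), a ratio of 6.61 (exact permutation test, p = 6.45e-05, the smallest the design allows, adjusted p = 0.00406). The number of hotspots was 40 to 56 in kidney and 2 to 28 elsewhere. No other protein-coding gene lies in the Pax2 window.

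The start of the Pax2 record carried a hotspot in all 5 kidney sets, in 2 liver sets, 2 lung sets and 1 B cell set. Of the transcript starts within Pax2, that of Pax2-202 had a hotspot in all 5 kidney sets and in none of the 15 others, and that of Pax2-201 in all 5 kidney sets and in 1 lung set. The widest kidney hotspot of the locus was 3920 bp long in B6xCAST and lay between 8.6 and 4.7 kb upstream of the start.

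Pax8, the paralog of Pax2 that stays on in adult tubules, lies on the reverse strand at chr2:24420560-24475599. Its locus was covered over 12428 bp in B6x129 kidney, 14748 in B6xC3H, 24204 in B6xCAST, 10162 in B6xSPRET and 29579 in B6xPWK. The other sets ranged from 2186 to 10729 bp with a median of 6059, and only the B6xSPRET kidney set fell within that range. The means were 18224 ± 8297 and 6234 ± 2228 bp, a ratio of 2.92 (exact permutation test, adjusted p = 0.00582). In number, the 33 to 50 kidney hotspots stood clear of the 6 to 28 elsewhere. With 100 kb on both sides the difference in bp missed the threshold (adjusted p = 0.0571), and the window also holds the protein-coding gene Psd4.

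A hotspot at the start separated the tissues most sharply at Pax8 and Tfap2b: both starts were marked in all 5 kidney sets, in the B6x129 liver set, and in no lung or B cell set. Both passed Fisher's exact test against the 15 other sets (adjusted p = 0.0156 for each over 7061 genes whose presence varied), which 3.02% of genes did. They were 2 of the 9 members, and both calls were lost when B6xC3H, B6xCAST, B6xPWK or B6xSPRET was left out (adjusted p = 0.0793 to 0.0979 with 4 hybrids). The 250 bases before the RefSeq starts of these genes are shown because these were the starts open almost only in kidney, and neither held any motif searched. The RefSeq start of Tfap2b is that of transcript Tfap2b-202, downstream of the start tested above, and it was open in all 5 kidney sets and in no other adult set. RefSeq promoters were matched for 8 of the 9 members. That of Pax8 is on the reverse strand of GRCm38.p6 at chr2:24475600-24475849, and that of Tfap2b on the forward strand at chr1:19211804-19212053.
Pax8 promoter: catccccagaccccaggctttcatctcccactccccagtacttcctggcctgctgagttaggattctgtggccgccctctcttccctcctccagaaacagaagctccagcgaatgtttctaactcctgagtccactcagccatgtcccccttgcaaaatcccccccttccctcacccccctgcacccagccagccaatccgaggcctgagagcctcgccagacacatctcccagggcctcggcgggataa
Tfap2b promoter: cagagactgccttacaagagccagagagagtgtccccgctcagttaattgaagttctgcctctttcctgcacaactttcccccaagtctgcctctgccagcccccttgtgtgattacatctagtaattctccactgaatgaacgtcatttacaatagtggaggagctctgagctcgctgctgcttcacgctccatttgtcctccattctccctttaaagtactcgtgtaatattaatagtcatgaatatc

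Lhx1, a LIM homeobox factor of the nephric duct and early nephron, lies on the reverse strand at chr11:84518284-84525535. Its locus was covered over 7857 bp in B6x129 kidney, 7582 in B6xC3H, 10430 in B6xCAST, 6607 in B6xSPRET and 15252 in B6xPWK, against 1348 to 9430 elsewhere with a median of 3717. Only the B6xCAST and B6xPWK kidney sets lay above all other sets. The ratio of means was 2.13, 9546 ± 3489 against 4487 ± 2386 bp (exact permutation test, adjusted p = 0.0350). That call was lost without B6xC3H (adjusted p = 0.0944), B6xCAST (0.144), B6xPWK (0.278) or B6xSPRET (0.0690), and with placements kept within hybrids (0.0659). The number of hotspots, 14 to 25 in kidney and 3 to 26 elsewhere, did not pass (adjusted p = 0.426).

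Emx2, a homeobox factor of the ureteric bud, lies on the forward strand at chr19:59458372-59465357. Its locus was covered over 8597 bp in B6x129 kidney, 20117 in B6xC3H, 16434 in B6xCAST, 7558 in B6xSPRET and 19363 in B6xPWK. The highest of the other sets was B6x129 liver with 7193 bp, and the lowest held 540 bp, with a median of 2670. The kidney sets thus split into 3 high and 2 low, but all 5 lay above the rest, at 14414 ± 5957 against 2651 ± 1684 bp, a ratio of 5.44 (exact permutation test, adjusted p = 0.00406). The number of hotspots did not split in the same way: it was 23, 20, 20, 17 and 20 in the kidney sets of B6x129, B6xC3H, B6xCAST, B6xPWK and B6xSPRET. The extra bp in 3 hybrids were in wider hotspots, not in more of them.

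Unlike that of Pax8, the Emx2 start was marked in most tissues: in all 5 kidney and liver sets, 4 lung sets, 1 B cell set and the mESCs. The Lhx1 start was likewise marked in all 5 kidney and liver sets, in 3 lung and 2 B cell sets, and in mESCs.

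Tfap2b, an AP-2 factor of the distal nephron, lies on the forward strand at chr1:19208914-19238576. It had the largest ratio of the 9 loci. Hotspots covered 4587 bp in B6x129 kidney, 15291 in B6xC3H, 25109 in B6xCAST, 3819 in B6xSPRET and 14338 in B6xPWK. The other sets held 0 to 3199 bp with a median of 507. The lowest kidney set was close to the highest of the rest, but none overlapped, and the means of 12629 ± 8776 and 917 ± 927 bp stood in a ratio of 13.8 (exact permutation test, adjusted p = 0.00406). The kidney sets held 12 to 22 hotspots and the others 0 to 11. In mESCs the Tfap2b start was open too, and the locus held 14 DNase hotspots.

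**Figure D2:**
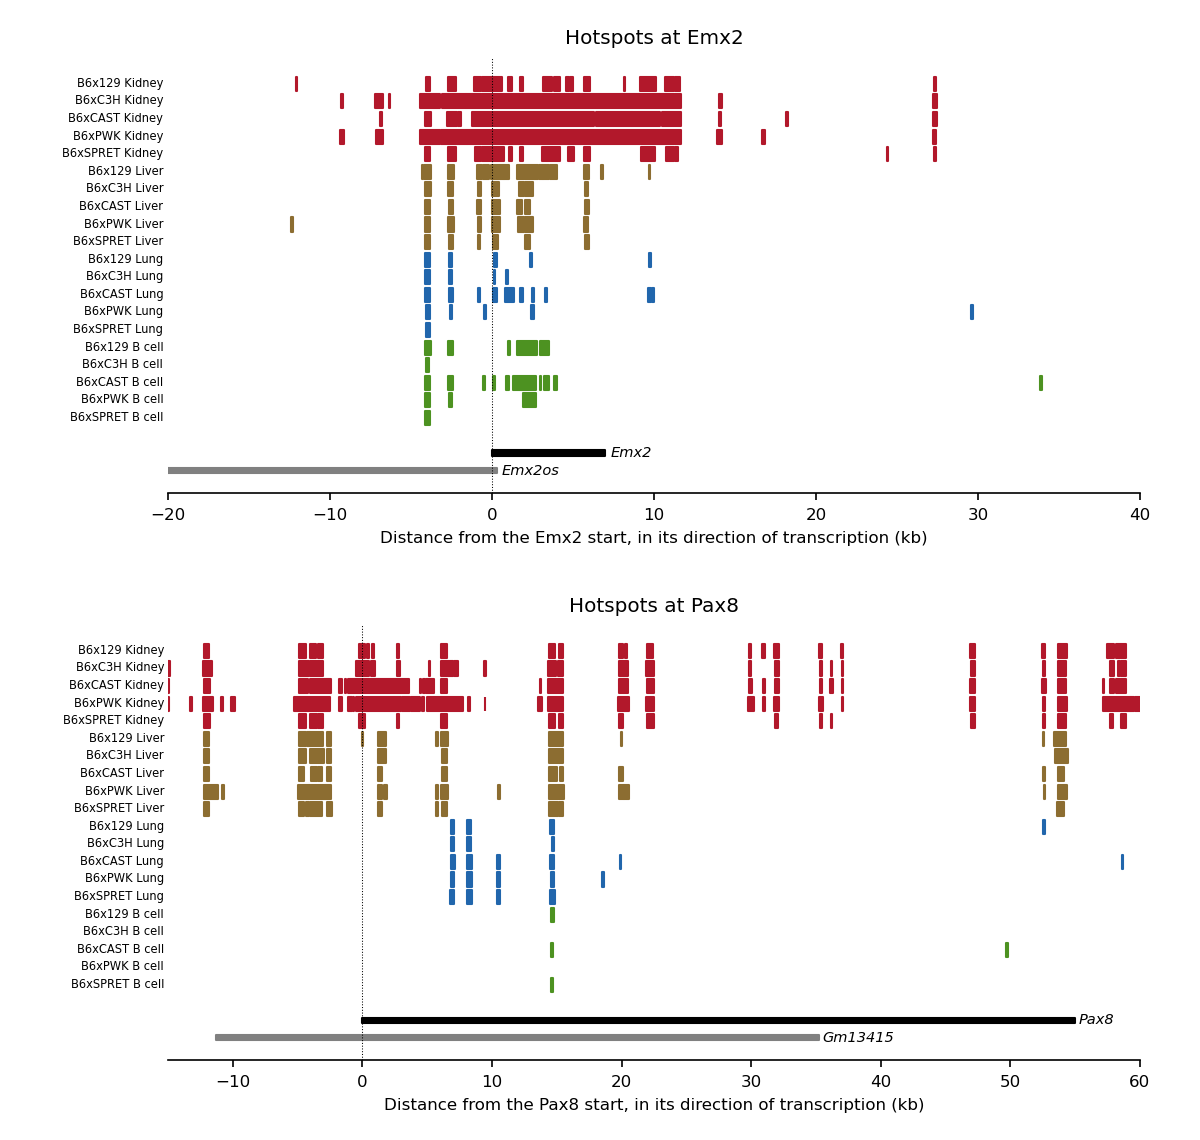
Hotspots of the 20 adult sets (1 row per set, coloured by tissue) at Emx2 and Pax8 against the distance from the gene's start in its direction of transcription (kb), with genes below, black on the strand of the named gene and grey on the other. At Emx2 a hotspot of up to 13251 bp runs past the end of the gene in B6xC3H and B6xPWK kidney, and at Pax8 the start carries a hotspot in the 5 kidney sets and in B6x129 liver.

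At 6 loci the widest kidney hotspot was among the widest of its whole set. In B6xC3H kidney, a hotspot of 13251 bp ran from 1.6 kb before the Emx2 start to 11.7 kb after it, beyond the end of the gene, and ranked 3 by width of 203372. In B6xCAST kidney, a hotspot of 8439 bp around the Tfap2b start ranked 9 of 228944, one of 4056 bp at the Pax8 start ranked 141, and that upstream of Pax2 ranked 158. In B6xPWK kidney, a hotspot of 5740 bp over the Lhx1 start ranked 27 of 231416, and one of 3498 bp over the Esrrg start ranked 157. These spans were picked for their width in kidney, so their kidney values are a description without a test.

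At 5 of the 6 spans, all but that at Esrrg, B6x129 and B6xSPRET were the lowest kidney sets. The Emx2 span was covered to 42.4%, 100%, 95.7%, 99.9% and 41.2% in the kidney sets of B6x129, B6xC3H, B6xCAST, B6xPWK and B6xSPRET. That at Tfap2b was covered to 21.4%, 96.9%, 100%, 99.5% and 18.6% in the same order. The B6x129 and B6xSPRET sets thus held only part of these spans, which were nearly whole in the other hybrids. At Esrrg no hybrid stood apart, with 93.9%, 92.3%, 95.5%, 100% and 92.5% in that order, beside 63.1% to 71.2% in liver.

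At Lhx1 the kidney values in that order of hybrids were 62.1%, 63.3%, 86.4%, 100% and 61.0%, with a smaller gap between hybrids. At Pax8 they were 23.1%, 37.1%, 100%, 93.9% and 14.3%, and at Pax2 44.0%, 91.8%, 100%, 77.7% and 23.9%. Outside kidney, cover of the Emx2 span reached 34.8% in B6x129 liver and 18.7% in the highest B cell set. The Pax8 span reached 18.6% in liver and held no hotspot in any lung or B cell set.

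These hybrid differences moved with a property of the whole sets. The B6x129 and B6xSPRET kidney sets held the fewest hotspots of 3 kb or more, 86 and 115, against 365 in B6xC3H, 450 in B6xCAST and 294 in B6xPWK. They also pooled the fewest libraries, 2 and 5, against 8, 14 and 8. The paper also lists the fewest analyzed reads for these kidney sets among the 5. In hotspots of any width they differed: B6x129 held the most of the 5, 238917, and B6xSPRET the fewest, 186061. With 1 set per hybrid and tissue, strain, pooling and read depth cannot be told apart. Without both of these kidney sets, a choice made after their values were seen, Pax2, Pax8, Emx2, Wt1 and Tfap2b were still called higher in kidney and Lhx1 was not (adjusted p = 0.0564).

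**Figure D3:**
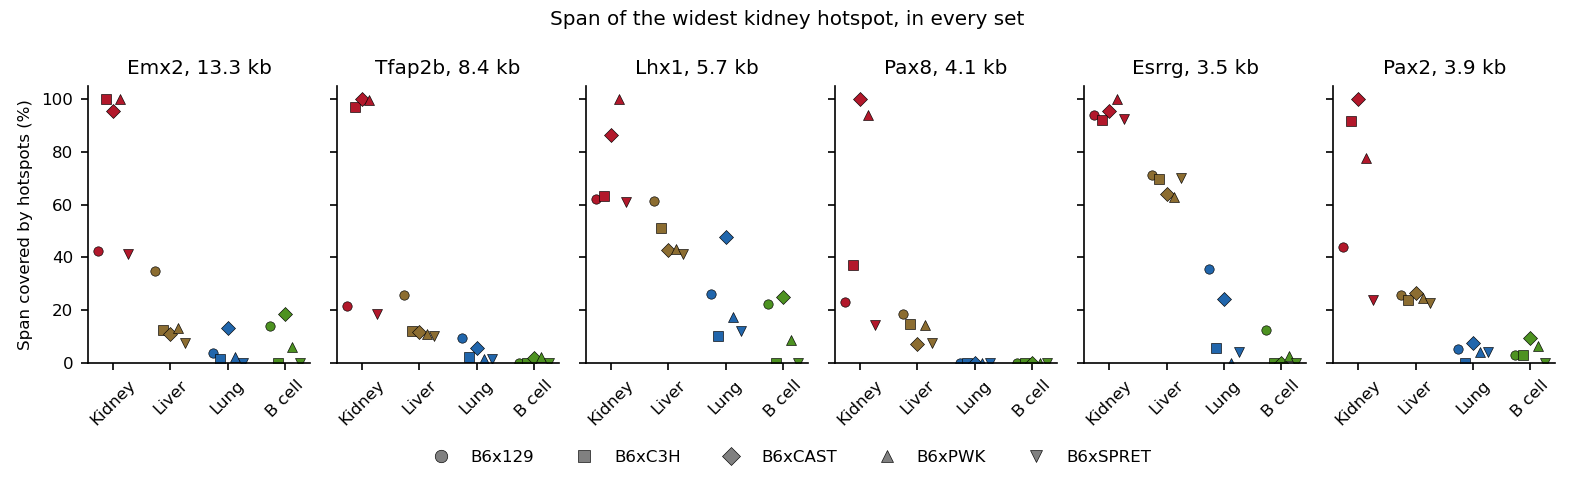
Share of the widest kidney hotspot's span that is covered by hotspots (%, vertical axis) at 6 loci in each of the 20 adult sets, by tissue, with 1 point per hybrid, marked by shape. B6xCAST and B6xPWK kidney cover most of every span, B6x129 and B6xSPRET kidney cover less at all but Esrrg, where all 5 kidney sets cover 92.3% or more, and the span widths are given above the panels.

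Wt1, a zinc-finger factor of podocytes, lies on the forward strand at chr2:105126529-105173616. Its locus varied little between hybrids, with 6561 bp in B6x129 kidney, 7384 in B6xC3H, 7221 in B6xCAST, 4722 in B6xSPRET and 6093 in B6xPWK. The other sets covered 0 to 5522 bp with a median of 2788, and only B6xSPRET kidney fell below the highest of them, B6x129 liver. The means were 6396 ± 1070 and 2280 ± 1540 bp, a ratio of 2.80 (exact permutation test, adjusted p = 0.00582). The call was lost with the gene body alone (adjusted p = 0.0793), with 10 kb (0.0538) or 100 kb (0.138) on both sides, and with the 75000 highest-scoring hotspots of each set (0.0792). The start of its record was open in all 5 kidney sets, in 4 lung sets, in B6x129 liver and in no B cell set. A protein-coding start further in, that of Wt1-201 and Wt1-202, was not kidney-biased. It was open in 3 kidney, 4 lung, 4 B cell and 1 liver sets and in mESCs. Of markers of mesothelium, the lining of body cavities, which also expresses Wt1, Upk3b had a hotspot at its start in 4 kidney and 4 lung sets, and Msln in 0 kidney and 2 lung sets. The part of these cells in the Wt1 values was not tested.

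Tfcp2l1, a grainyhead-like factor of the collecting duct that is also known from the pluripotency network of mESCs, lies on the forward strand at chr1:118627945-118685168. Its kidney sets covered 13437, 11914, 11607, 15557 and 8661 bp in the order B6x129, B6xC3H, B6xCAST, B6xPWK and B6xSPRET. The liver sets reached nearly the same level, 10163 to 13508 bp, the lung sets held 5613 to 9873 and the B cell sets 502 to 1726. Kidney against all others gave a ratio of 1.78 (exact permutation test, adjusted p = 0.200). It passed when cover was expressed per Mb of hotspot in the set (0.0406), with the gene body alone (0.0311), with 10 kb on both sides (0.0301), and in limma on log2(bp + 100) with hybrid as a covariate (1.99e-05). The start was open in all 20 adult sets and in mESCs, where the locus held 19 DNase hotspots.

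Esrrg, on the forward strand at chr1:187608791-188214885, is much the longest member, and its window of 706.095 kb held the most hotspots. The kidney sets held 112, 97, 108, 99 and 78 hotspots and covered 37545, 38614, 38237, 37294 and 26703 bp in the order B6x129, B6xC3H, B6xCAST, B6xPWK and B6xSPRET. The liver sets covered 32696 to 52459 bp, above the lung sets at 5090 to 16016 and the B cell sets at 1051 to 2498. Kidney and liver overlapped and both stood far above lung and B cells, so kidney against all others did not pass (ratio 2.02, adjusted p = 0.259), although it did per Mb of hotspot in the set (0.0322) and in limma with hybrid as a covariate (8.68e-07).

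Gata3, on the reverse strand at chr2:9857078-9890034, is known from the nephric duct and collecting duct and from T cells. Its kidney sets covered 5624, 12674, 15727, 6507 and 2869 bp in the same order of hybrids, and the other sets 951 to 11366 with a median of 5501. The spread within kidney was as wide as that between tissues, and the difference did not pass (ratio 1.68, adjusted p = 0.345). The start of the record was open in 4 kidney sets, all but B6xSPRET, in 5 liver sets, 1 lung set and 2 B cell sets. The start of Gata3-201, a protein-coding transcript, was open in all 5 kidney, liver and lung sets and in 4 B cell sets. The T cell genes Cd3e, Cd3d and Cd3g had no hotspot at their starts in any kidney set.

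Comparing each other tissue with the rest in the same way, Esrrg was the 1 member covered more in liver, at 40707 ± 8274 bp (SD, n = 5) against a mean of 15959 bp (exact permutation test, adjusted p = 0.0118). Of all genes, 41.1% were called higher in liver, and the Esrrg call was lost per Mb of hotspot in the set. None of the 9 was higher in lung, where 0.63% of genes were, and none was higher in B cells, where 3.72% were, and 0 of 9 were higher in either at an unadjusted p under 0.05. In B cells 4 of the 9 were covered less (Lhx1, Wt1, Tfcp2l1 and Esrrg, adjusted p = 0.0342, 0.00747, 0.00119 and 0.00185), beside 31.8% of all genes. Together the 9 loci took 0.136% to 0.210% of all hotspot bp in the kidney sets, 0.0930% to 0.0957% in liver, 0.0496% to 0.0612% in lung and 0.0300% to 0.0462% in B cells, with no overlap between tissues. Of the 9 starts, 8 or 9 were open in a kidney set, 5 to 9 in a liver set, 2 to 7 in a lung set and 1 to 5 in a B cell set.

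To find which sites made up the kidney cover, hotspots of the 20 adult sets were merged where they shared at least 1 bp. The 9 loci held 671 such sites, of which 423 had a kidney hotspot and 216 had hotspots in kidney only. In the whole genome, 33.8% of the sites with a kidney hotspot had hotspots in kidney only. Of those 216, 99 were seen in 1 hybrid, 75 in 2 to 4, and 42 in all 5. The 42 sites were 9.93% of the kidney sites at these loci, and 4.86% of all kidney sites in the genome were open in all 5 kidney sets and in no other set. B6xSPRET held the fewest of the 216, 60, and B6xCAST the most, 137, with 97 in B6x129, 104 in B6xC3H and 121 in B6xPWK. Of the 18 kidney-only sites seen in 4 hybrids, 9 lacked B6xSPRET, 7 lacked B6xC3H and 2 lacked B6xPWK.

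The 42 sites were spread unevenly. Esrrg held 20, Pax2 6, Pax8 4, Emx2, Wt1 and Tfcp2l1 3 each, and Lhx1, Tfap2b and Gata3 1 each. As a share of the kidney sites of the locus, that was 14.7% at Esrrg, 13.6% at Emx2, 12% at Pax2 and 10% at Wt1. It was 7.84% at Pax8, 7.5% at Tfcp2l1, 5% at Tfap2b, 3.23% at Lhx1 and 2.33% at Gata3, beside 4.86% in the genome. By annotation, 29 lay in introns, 8 between genes, 3 over exons and 2 at starts. Esrrg did not pass as a whole locus, but 19 of its 20 sites were intronic, between 3.2 and 580.1 kb from its start, within a locus where liver had as much cover elsewhere. The start sites were 1 at Pax2, 2066 bp wide and 3.2 kb downstream of the start of the record, and 1 at Pax8. The latter, of 292 bp at chr2:24440075-24440366, lay at the start of Gm13415, a processed transcript on the strand opposite Pax8.

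**Figure D4:**
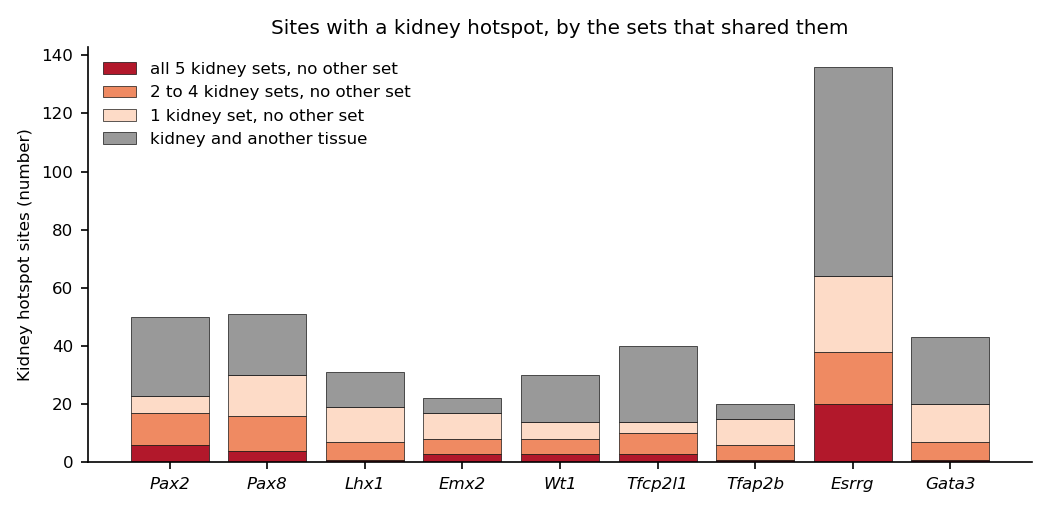
Number of merged sites with a kidney hotspot at each locus (vertical axis), stacked by whether the site was open in all 5 kidney sets and no other set, in fewer kidney sets and no other set, or also in another tissue. Esrrg holds 136 of the 423 kidney sites and 20 of the 42 sites open in all 5 kidney sets only.

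Of the 42 sites, 4 (9.52%) overlapped an mESC DNase hotspot and 1 (2.38%), at the end of Tfap2b, an mESC CTCF hotspot, beside 4.35% and 1.65% of the genome's sites open in all 5 kidney sets and no other. Of all 423 kidney sites, 65 (15.4%) overlapped mESC DNase hotspots and 32 (7.57%) CTCF hotspots, beside 18.4% and 14.9% of kidney sites in the genome. The mESC sets were single and had no repeat. They held from 3 DNase hotspots at Emx2 to 19 at Pax2 and Tfcp2l1, and from 4 CTCF hotspots at Pax8, Lhx1 and Gata3 to 26 at Esrrg.

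The central 200 bases of the 42 sites were searched on both strands for the letters of 9 motifs. AP-1 (TGACTCA) was found in 4 sites (9.52%), beside 4.94% of the 14826 kidney-only sites of the genome and 5.27% of all 745754 sites. HNF1 (TTAATNATT) was found in 3 (7.14%), beside 5.15% and 1.65%, and TFAP2 (GCCNNNGGC) in 3 (7.14%), beside 6.21% and 5.26%. ESRRG (TCAAGGTCA) was found in 2 (4.76%, beside 0.992% and 0.798%), the Esrrg site shown above and an intron of Tfcp2l1. The homeobox letters TAATTA were found in 2 (4.76%, beside 10.6% and 5.51%).

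No match was found in these windows for PAX2/PAX8 (GTCACGC), HNF4 (CAAAGTCCA), WT1 (GCGTGGGAG) or the letters AGATAA of Gata factors, which 0.728%, 2.02%, 0.0472% and 8.16% of the genome's kidney-only sites held in that order. In the 250 bases before 32851 RefSeq starts, the shares were 4.46% for AP-1, 1.40% for HNF1, 13.7% for TFAP2 and 0.387% for ESRRG. With 42 sites, each match moves a share by several percentage points, and a match to letters is not a measure of binding.

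RNA-seq tables were read beside the hotspots. Their totals were low, 437171 to 551272 counts in the 4 kidney libraries, 283724 to 322257 in liver, 380114 to 387503 in lung and 285191 to 809336 in B cells, and the values are rounded expected read counts per gene. The order of kidney libraries is B6xPWK, B6xSPRET, B6xSPRET and B6xC3H. Which strand the tables counted was uncertain, since Alb, the main liver transcript, reached only 95 to 767 counts in liver. Members are therefore given beside the gene named on their opposite strand, where there was one, and the counts are not read as transcript levels.

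Pax2 had 9, 7, 2 and 9 counts in kidney and 1 in the 13 other libraries together. Lhx1 had 7, 9, 12 and 21 in kidney and 2 elsewhere, and Lhx1os, on the opposite strand without overlapping exons, had 0 in kidney and 0 elsewhere. Emx2 had 14, 8, 12 and 14 in kidney and 1 elsewhere, and Emx2os, whose exons overlap those of Emx2 on the opposite strand, had 11, 12, 5 and 13 and 0 elsewhere. At these 3 members, kidney libraries lay above the others, at a level of few counts.

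Pax8 had 0, 1, 0 and 0 counts in kidney, but Gm13415, on the opposite strand with overlapping exons, had 153, 107, 70 and 141, and 0 in all 13 other libraries. That is at least 418-fold higher in kidney as mean counts scaled to library size, taking 3 counts over the other libraries as the floor (edgeR quasi-likelihood test, adjusted p = 1.3e-10). Gm13415 was the 1 of 14 named genes that passed the filter on low counts, and it was called higher in kidney, as were 23.2% of the 4479 genes tested. None of the 9 members passed that filter. Without it, edgeR called Pax2, Lhx1, Emx2, Tfcp2l1 and Tfap2b higher in kidney (adjusted p = 3.73e-09, 5.35e-15, 8.76e-16, 0.0185 and 0.00912). DESeq2 and limma on log2(TPM + 1) also called the first 3, but limma did not call Tfcp2l1 (adjusted p = 0.0917) or Tfap2b (0.169), and DESeq2 gave neither an adjusted p. Tfcp2l1 had 5, 3, 0 and 2 counts in kidney and 3 elsewhere, and Tfap2b had 1, 0, 3 and 4 and 3 elsewhere. Wt1, Esrrg and Gata3 had at most 1 count in any kidney library, so no difference could be read from these tables, whose strand is uncertain. On the opposite strand, Wt1os had 2 counts in kidney and 8 elsewhere, and Gm13256, at Gata3, had 1 and 2. The paper lists far more mapped reads per library than these tables hold, so the low counts are not a measure of sequencing depth.

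**Figure D5:**
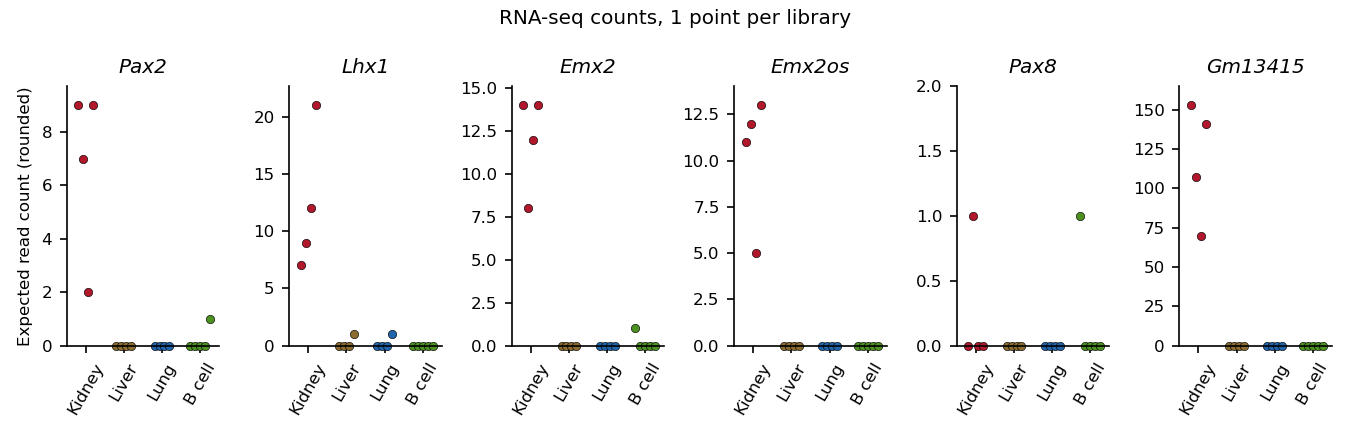
Rounded expected read counts (vertical axis, linear and scaled per panel) of 4 members and 2 genes on the opposite strand in 17 RNA-seq libraries, 1 point per library, by tissue. Gm13415 has 70 to 153 counts in kidney and 0 elsewhere, whereas Pax8 has at most 1 count in any library.

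Other factors known from kidney development, 28 listed by textbook role, were measured in the same way. By bp, 4 were called higher in kidney (Pou3f3, Foxi1, Sim1 and Wnt9b) and none lower, beside 6 of 9 members, and their median ratio was 1.58 beside 2.80 for the members. Pou3f3, a POU factor of the distal nephron, was covered over 29170 bp in kidney and 1765 bp elsewhere on average, with no overlap (exact permutation test, adjusted p = 0.00406), and its difference was larger than that of Pax2. The next largest differences were those of Mecom (16165 bp, not called) and Sim1 (10444 bp). The smallest were Elf5 (-9701 bp), Eya1 (-3830) and Ret (-1482), none of them called. By number of hotspots 6 were higher in kidney, and by presence at the start 2 (Foxi1 and Tfap2a).

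For each member, the protein-coding gene outside its window whose cover over the 20 sets was most alike was found among about 18910 genes with a mean of at least 1000 bp. For Pax8 and Emx2 it was a homeobox gene in or beside the HoxD cluster, Evx2 (Pearson r = 0.976) and Hoxd4 (r = 0.977). It was Ceacam3 for Pax2 (r = 0.974), Fbxl2 for Lhx1 (0.963), Glis2 for Wt1 (0.970), Dock1 for Tfcp2l1 (0.977), 4930556J24Rik for Tfap2b (0.938), Mfsd4b1 for Esrrg (0.989) and Rbbp9 for Gata3 (0.919). These are the highest of many correlations over 20 sets that share tissue and pooling.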

How the data were processed

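The authors trimmed reads with Trimmomatic, mapped DNase-seq reads to mm10 with BWA, pooled libraries by hybrid and tissue, and ran hotspot2 at an FDR of 5%. Hotspots were deposited as intervals with a −log10 FDR of at most 100, which served here only for ranking and filtering. Some library names share a sample number, so libraries are not all separate animals. For RNA-seq, the authors used STAR and RSEM, and the deposited tables give an expected count and a TPM per gene. TPM was used in 1 alternative.

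Windows were taken from GENCODE vM21. bp and number were tested with the exact permutation test over 15504 placements, starts with Fisher's exact test, and rounded expected counts with edgeR's quasi-likelihood test (TMM, filterByExpr), each with Benjamini-Hochberg adjustment over all genes tested and a threshold of 0.05. Tests were checked on simulated data. Permutation p-values set the kidney difference against the spread over all adult sets, in which hybrids and the other tissues are mixed. Those of edgeR rest on the spread between libraries of a tissue. Genes named were the 9 members, their opposite-strand genes, 28 other kidney regulators and, per member, the gene most alike in cover. Members and lists were chosen with earlier results of these data known. Software was Python 3.11.15, NumPy 2.4.6, pandas 2.3.3, SciPy 1.17.1, Matplotlib 3.10.9, R 4.3.3, edgeR 4.0.16, limma 3.58.1 and DESeq2 1.42.0. Alternatives changed the FDR, the window, the start, the scaling, the test and the sets used, and their effect is given in the closing section.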

Additional observations from a re-analysis of the deposited data

Results flagged for a closer look

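In 72 groups of 5 sets, a single set stood apart from the other 4 of its tissue in 8, by a criterion that chance meets in about 1 of 20 groups. Of these 8, 6 were the B6x129 liver set, which held the most hotspots of all sets, 295565, and the most analyzed reads in the paper. It held 28 hotspots at Pax2 where the other liver sets held 17 to 20, and 26 at Lhx1 against 18 to 20. At Emx2 it held 20 hotspots against 9 to 11 and covered 7193 bp against 2670 to 3776. At Wt1 it held 23 hotspots against 12 to 15 and covered 5522 bp against 2751 to 3198. In the B6xCAST lung set, Emx2 cover was 3320 bp against 1195 to 1762. In the B6xSPRET kidney set, Esrrg cover was 26703 bp against 37294 to 38614, and that set was the kidney set with the fewest hotspots, 186061.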

How the results depend on the processing

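No member changed direction in kidney under any alternative run, and Pax2, Emx2 and Tfap2b kept their calls by bp in all of them. By bp, 6 members were called, 3 (Pax2, Emx2, Tfap2b) with 100 kb on both sides, 5 to 6 leaving out 1 hybrid and 5 to 8 otherwise. All genes called (1247) became 1994 per Mb of hotspot, 5156 with limma on log2(bp + 100), 699 without the B6x129 and B6xSPRET kidney sets, and 485 to 1191 leaving out 1 hybrid. By number, 5 members and 937 genes became 0 to 5 and 0 to 506 leaving out 1 hybrid (both 0 without B6xPWK). At the start, 2 members and 213 genes became 0 to 2 and 103 to 113 leaving out 1 hybrid, and 1 member with 1000 bp either side, at FDR 1% or with any transcript start. The 42 sites became 46 to 51 leaving out 1 hybrid, 35 at FDR 1% and 37 merging within 100 bp. Per Mb of hotspot, added after the data were seen, liver calls went from 1 to 0 members and from 8874 to 3837 genes higher (3724 lower), lung calls to 1703 higher and 1284 lower, and B cell calls to 8185 higher and 3966 lower. For RNA, 1 of 14 named genes was called, 5 with DESeq2, 7 without a filter and 5 with limma on log2(TPM + 1), and the genes called (1039) became 2397 without a filter and 1566 with limma. The cause of these changes was not tested. The labels give no replicate numbers that pair sets, and the hybrid served as the block: 1024 placements kept within hybrids called 5 members by bp, all but Lhx1, and limma with hybrid as a covariate called 8, adding Tfcp2l1 and Esrrg. Pooled sets and low RNA counts limit the precision.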
